A study of Caenorhabditis elegans with 2 samples.

Results

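Cytochrome P450 genes of Caenorhabditis elegans were examined for promoter occupancy by the nuclear hormone receptor NHR-129. Members were the protein-coding genes whose names begin with cyp- in the Ensembl annotation of WBcel235, the assembly also called ce11. They number 74 of 19973 nuclear protein-coding genes and fall into 15 families and 25 subfamilies by name. The data were ChIP-seq peak lists for NHR-129 tagged with eGFP, a fluorescent protein, and came from entire L2 animals, with the sexes mixed. The labels record the antibody under the name of the receptor, so whether the untagged protein was also precipitated cannot be told here. All animals were of strain OP339, whose genotype is unc-119(ed3) III with the insertion wgIs339, so every peak comes from this transgenic background and from all tissues of the animal at once. There was 1 group with 2 biological replicates, and the control library was not analysed here.

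Each gene was given a promoter window, which began 1000 bp before its annotated start and ended 100 bp after it, and its promoter signal was the highest signal among peaks whose summit lay in that window. The thresholded list holds the 6626 peaks that the authors selected by reproducibility between replicates, with signals of at least 63.4. The pooled relaxed list holds 30000 calls, which reach down to 15.6 and by design include background. Signal is the authors' peak-caller value, with no stated scale. Read depth is not given in the sources used here, so no counting interval stands beside a signal.

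Cytochromes P450 are haem monooxygenases that insert oxygen into lipids, steroids, drugs and other small molecules. Most sit in the endoplasmic reticulum and receive electrons from NADPH-cytochrome P450 reductase, with cytochrome b5 as a further donor. In C. elegans many are expressed in the intestine and are switched on by xenobiotics, and nuclear hormone receptors are among their known regulators. Families 33, 34 and 35 resemble mammalian CYP2 enzymes, families 13, 25 and 43 resemble CYP3, and families 29, 31, 32, 37 and 42 resemble CYP4.

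Of the 74 cyp genes, 14 had a thresholded summit in the window, or 18.9%, where 18.2% of all coding genes had one. The count for the whole family is therefore near the background. The members were unevenly spread over the families. Genes with a thresholded summit were 7 of 18 in family 33, 3 of 13 in family 13, 2 of 5 in family 14 and 2 of 3 in family 29, and none of the 35 genes in the other 11 families.

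The sequences at 6 of the summits are given first, read on the strand of the gene from ce11 and left out where an exon begins. For cyp-33C8 this leaves out the summit itself, which lies 21 bp downstream of the start. The first 4 are those of the strongest thresholded summits near cyp genes. The fifth, of cyp-29A4, is the one cyp summit with the nuclear receptor core AGGTCA within 100 bp, and the sixth, of cyp-33C4, is shown for a stretch it shares with its closest relative. The stretches are chrV:3803543-3803621 on the minus strand for cyp-33C8, chrX:13267356-13267539 on the minus strand for cyp-14A1, chrV:2250204-2250404 on the plus strand for cyp-33C7, chrII:9800363-9800537 on the minus strand for cyp-13A5, chrV:9654170-9654284 on the plus strand for cyp-29A4 and chrV:2235940-2236139 on the plus strand for cyp-33C4. Capitals mark matches to the motifs AGGTCA and TGATAA, on either strand, in cyp-14A1 and cyp-29A4. The 100 bp on either side of the cyp-29A4 summit hold 2 matches to AGGTCA, of which the stretch shown has 1. In cyp-33C4 they mark the 69 bases found unbroken in the cyp-33C3 window.
cyp-33C8: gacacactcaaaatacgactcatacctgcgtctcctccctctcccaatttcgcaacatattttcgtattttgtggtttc
cyp-14A1: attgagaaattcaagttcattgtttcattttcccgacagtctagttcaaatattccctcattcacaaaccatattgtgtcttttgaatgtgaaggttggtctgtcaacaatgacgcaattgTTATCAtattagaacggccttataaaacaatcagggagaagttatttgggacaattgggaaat
cyp-33C7: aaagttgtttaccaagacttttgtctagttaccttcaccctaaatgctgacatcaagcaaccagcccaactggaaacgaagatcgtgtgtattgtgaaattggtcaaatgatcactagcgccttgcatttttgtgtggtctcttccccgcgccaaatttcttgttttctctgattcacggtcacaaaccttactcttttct
cyp-13A5: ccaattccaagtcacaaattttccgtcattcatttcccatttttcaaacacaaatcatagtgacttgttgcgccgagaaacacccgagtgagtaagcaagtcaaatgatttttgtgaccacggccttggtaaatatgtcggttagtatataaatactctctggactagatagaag
cyp-29A4: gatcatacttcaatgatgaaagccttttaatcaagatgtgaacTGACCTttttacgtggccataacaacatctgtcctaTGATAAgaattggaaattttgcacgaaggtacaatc
cyp-33C4: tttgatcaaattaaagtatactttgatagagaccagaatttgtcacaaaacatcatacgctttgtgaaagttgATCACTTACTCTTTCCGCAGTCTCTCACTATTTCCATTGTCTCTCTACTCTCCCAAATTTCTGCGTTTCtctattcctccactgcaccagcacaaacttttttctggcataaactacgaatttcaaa

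In family 33 the signals lay in subfamily 33C and in the single gene of 33A. Subfamily 33C had a thresholded summit at 6 of its 11 genes, and 33B, 33D and 33E had none at their 6 genes together. cyp-33C8 (WBGene00019967) had the strongest promoter signal of all members, 444, at rank 347 of 6626. Its peak, chrV:3803424-3803647, has its summit 21 bp downstream of the annotated start, in the noncoding part of the first exon. The overlapping replicate calls had signals of 232 in replicate 1 and 209 in replicate 2, at ranks 381 and 321. Replicate signals are on another scale than pooled ones and are compared only with each other.

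The second strongest signal in the family came from a summit shared by a pair of neighbours that are read away from each other. The peak chrV:2250119-2250488 had a signal of 141 at rank 2755, with 78.2 in replicate 1 and 60.6 in replicate 2. Its summit lies 236 bp upstream of cyp-33C7 (WBGene00018260) and 894 bp upstream of cyp-33C6 (WBGene00018264), so the peak cannot be assigned to one of them. With a window of 500 bp upstream, cyp-33C6 no longer had a thresholded summit.

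The other 33 genes with thresholded summits were weaker. cyp-33C5 (WBGene00018261) had a signal of 85.1 at chrV:2244751-2245120, with 42.1 in replicate 1 and 44.2 in replicate 2, and its summit was 68 bp upstream of the start. cyp-33A1 (WBGene00015709) had a signal of 80.8 at chrV:7681404-7681773, with 47.1 in replicate 1 and 31.3 in replicate 2, and its summit was 130 bp upstream. Both lie in the weaker part of the thresholded list, whose median signal was 122.

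cyp-33C9 (WBGene00016860) had a signal of 72.0 at chrV:3094401-3094770, with the pooled summit 25 bp upstream of the start. The overlapping call had a signal of 41.6 in replicate 2, and 37.6 in replicate 1 with its summit 152 bp from the pooled one. Of the 13 distinct cyp summits this was the one with the largest shift, and at the other 12 the replicate summits lay within 84 bp of the pooled one. cyp-33C4 (WBGene00018413) was the weakest of all, with a signal of 68.1 at chrV:2235855-2236224, with 35.4 in replicate 1 and 31.2 in replicate 2, and a summit 100 bp upstream. When as many strongest calls were taken from replicate 1 alone, both genes lost their summit. The cyp-33C9 call, at rank 6483, was still among them with its summit outside the window, and the cyp-33C4 call, at rank 6890, was not.

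**Figure D1:**
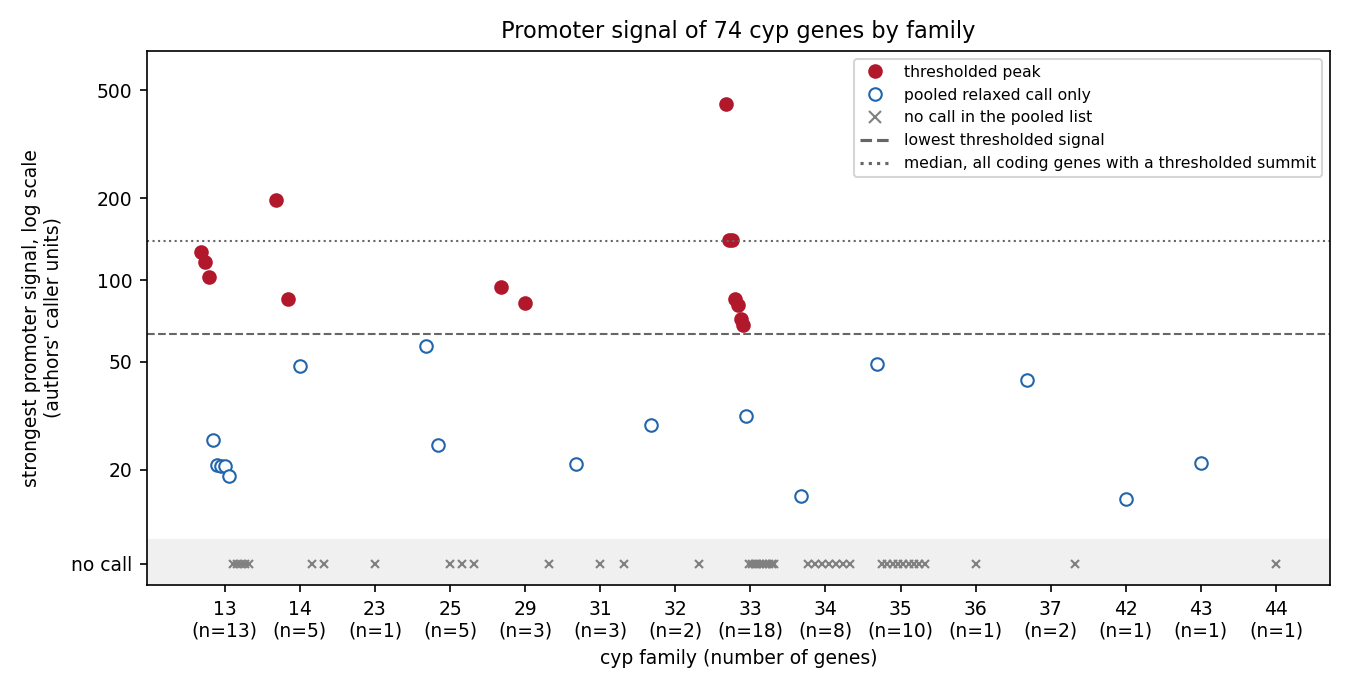
Strongest promoter signal (authors' caller units, log scale) of each of 74 cyp genes, by family. Filled red points are thresholded summits, open blue points are pooled relaxed calls only, and grey crosses are genes with no pooled call in the window; the dashed line is the lowest signal in the thresholded list (63.4) and the dotted line the median over coding genes with a thresholded summit (139). The thresholded points fall in families 13, 14, 29 and 33, and cyp-33C8 stands above the rest at 444.

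Family 13, the CYP3-like genes, had its 3 thresholded promoter summits in a single run of 13A genes on chromosome II. cyp-13A5 (WBGene00011672) had a signal of 127 at chrII:9800252-9800621, with 74.5 in replicate 1 and 48.0 in replicate 2, and the summit was 75 bp upstream of its start. cyp-13A2 (WBGene00011676) had a signal of 117 at chrII:9787445-9787814, with 80.8 in replicate 1 and 47.5 in replicate 2, and the summit was 1 bp upstream. cyp-13A8 (WBGene00011674) had a signal of 102 at chrII:9807542-9807911, with 60.7 in replicate 1 and 41.0 in replicate 2, and the summit was 158 bp upstream. The 3 genes were close in signal, and in each the replicate 1 value was the higher, as at most of the cyp summits.

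A further 13A gene carried a thresholded summit within the gene. cyp-13A3 (WBGene00011675) had a peak at chrII:9791242-9791611 in an intron, 1870 bp downstream of its start, with a signal of 76.0, 48.8 in replicate 1 and 23.9 in replicate 2. It was the 1 cyp gene of 74 with a thresholded summit inside the gene and outside the promoter window, where 7.07% of all coding genes had one. No other coding start was nearer to that summit.

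Family 14 had thresholded summits at cyp-14A1 (WBGene00010705) on chromosome X and cyp-14A5 (WBGene00000373) on chromosome V. The cyp-14A1 peak, chrX:13267381-13267506, had a signal of 197 at rank 1702, with 116 in replicate 1 and 76.6 in replicate 2, and its summit was 84 bp upstream. The cyp-14A5 peak, chrV:5423200-5423569, had a signal of 85.5 at rank 4922, with 48.7 in replicate 1 and 34.0 in replicate 2, and its summit was 103 bp upstream. The second strongest signal over all members was thus that of cyp-14A1, and the neighbours cyp-14A2 and cyp-14A3 had no summit of any list in their windows.

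Family 29, a CYP4-like family, had thresholded summits at cyp-29A2 (WBGene00011830) and cyp-29A4 (WBGene00007140) and none at cyp-29A3, which is known for making eicosanoids. The cyp-29A2 peak, chrV:11217324-11217693, had a signal of 94.7, with 50.7 in replicate 1 and 39.0 in replicate 2, and its summit was 74 bp upstream. The cyp-29A4 peak, chrV:9654085-9654454, had a signal of 82.5, with 41.9 in replicate 1 and 38.1 in replicate 2, and its summit was 485 bp upstream. The nearest thresholded summit to the cyp-29A3 start was 5759 bp away.

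All 13 distinct summits were overlapped by a call of each replicate, by at least 1 bp. Replicate 1 had the higher signal at 11 of 13, with cyp-33C5 and cyp-33C9 the exceptions. The share over all thresholded summits is not given here, so this cannot be called particular to cyp genes. The log2 ratio of replicate 1 to replicate 2 had a median of 0.38 and ran over -0.15 to 0.77 (SD 0.29, n = 13 summits). cyp-33C8 and cyp-14A1 were the highest in both replicates, and the weaker summits lay close enough together that their order differed between replicates.

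**Figure D2:**
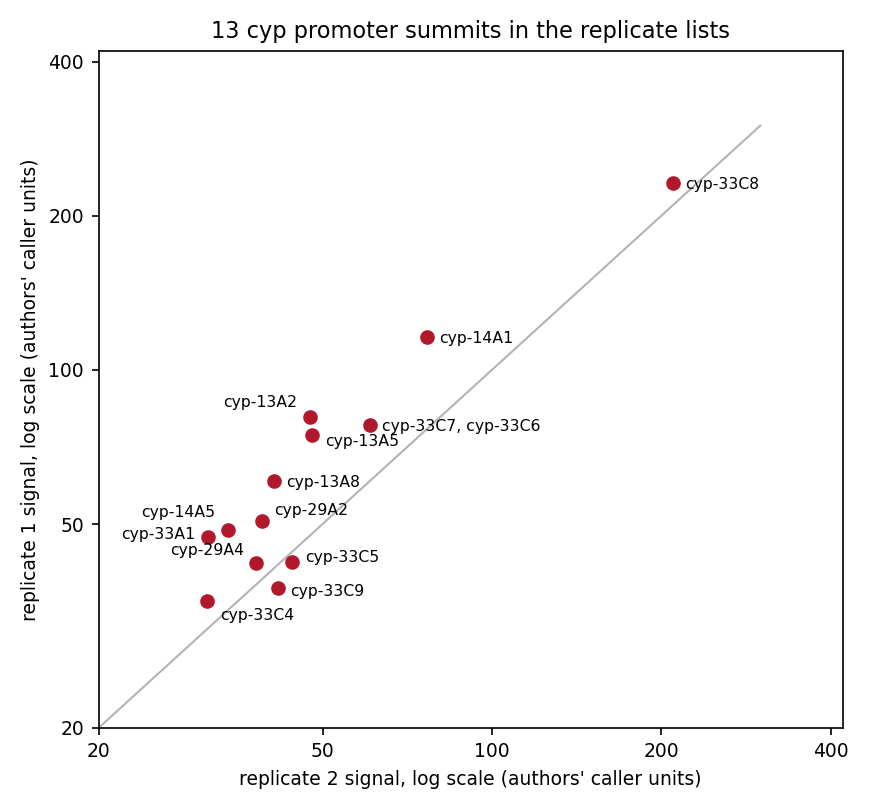
Signal of the overlapping call in replicate 1 (vertical) and replicate 2 (horizontal), both in authors' caller units on log scales, for the 13 thresholded summits in cyp promoter windows; the line marks equal values. 11 points lie above the line, and cyp-33C8 stands apart at 232 and 209.

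The signals were modest for this data set. The 14 genes had a median thresholded promoter signal of 98.5, against 139 over the 3640 coding genes with a thresholded summit and 133 over those of chromosome V. Of the 14 genes, 9 lay below and 5 above the median of the list, and cyp-33C8 was the single member among the 1000 strongest peaks. Over the 30 cyp genes with a pooled call the median was 53.2, against 57.1 over all 7717 coding genes with one.

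The summits lay near the annotated starts. The median position was 92 bp upstream of the start for the 14 cyp genes, against 241 bp upstream over all coding genes with a thresholded summit. The summit was within 200 bp of the start in 11 of 14 cyp genes, against 42.9% of those coding genes. Of the 14 cyp genes, 2 had their strongest summit in the window of another coding gene, cyp-33C6 and cyp-33C7, which share it, against 44.6% of all coding genes with a thresholded summit. None of the 13 summits lay in the window of a coding gene that is not a cyp gene, or of a tRNA, snoRNA, snRNA, miRNA, rRNA or lincRNA gene.

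Below the threshold, 16 cyp genes had a pooled relaxed call only, which brought the total with a pooled call to 30 of 74, or 40.5%, where 38.6% of all coding genes had one. Their signals ran from 15.6 to 57.4 with a median of 22.9. Calls from each replicate in the window were present for 22 of 74 genes, or 29.7%, against 30.2% of all coding genes. These shares, too, are near the background.

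The strongest of these was cyp-25A2, a CYP3-like gene, with a pooled signal of 57.4, 21.0 in replicate 1 and 36.2 in replicate 2. It was also the gene gained when the strongest calls of replicate 2 alone were used. cyp-35A2, of the xenobiotic-induced 35A genes, had 48.9, with 30.6 in replicate 1 and 17.4 in replicate 2, from a summit 948 bp upstream that also lay in the window of exc-13. cyp-14A4 had 48.1, with 24.8 in replicate 1 and 21.3 in replicate 2, and cyp-37B1 had 43.0, with 22.4 in replicate 1 and 16.4 in replicate 2. These 4 genes had calls in both replicates.

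The next were weaker or came from 1 replicate. cyp-33C2 had a pooled signal of 31.4, with 12.2 in replicate 1 and 19.0 in replicate 2, and cyp-13A10 had 25.6, with 11.6 and 11.9. cyp-32B1 had 29.2 with a call of 24.0 in replicate 2 and none in replicate 1, and its summit lies in an exon of its neighbour cyp-33C12. cyp-25A3 had 24.6 with a call of 22.2 in replicate 1 and none in replicate 2, at a summit shared with C36A4.11. The remaining 8 genes with pooled calls only had signals of at most 21.2, and 40 members had no summit in the window in any list.

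cyp-33D1 and cyp-13B1 had a call in each replicate but none in the pooled list. cyp-33D1 had signals of 12.1 in replicate 1 and 12.8 in replicate 2, and cyp-13B1 had 13.7 and 21.6. cyp-31A3 had a call of 9.35 in replicate 1 alone, and cyp-34A8 one of 17.6 in replicate 2 alone.

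Families 34 and 35 hold many of the worm's xenobiotic-induced P450 genes, and none of their 18 members had a thresholded promoter summit. All 18 lie on chromosome V, where 12.9% of coding genes had one. Whether they depart from that share was not tested. A pooled call was present at 1 of 8 genes in family 34, cyp-34A7 at rank 29181 of 30000 with no overlapping replicate call. In family 35 it was present at 1 of 10, cyp-35A2, where 38.6% of all coding genes had one. The starts of family 34 lay a median of 56282.5 bp from the nearest thresholded summit, with a range of 51721 to 99959 bp. Its members are neighbours, cyp-34A5 to cyp-34A10 in one run and cyp-34A1 with cyp-34A2 in another. Neighbours share a gap, so these distances are not independent. Those of family 35 lay a median of 31692 bp away, with a range of 1781 to 51470 bp. The median was 10451.5 bp over coding genes of chromosome V and 6334 bp over all coding genes.

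Over all 74 members the median distance was 6849.5 bp. It was 3752.5 bp in family 33, 3183 bp in family 13, 2247 bp in family 14 and 485 bp in family 29, where members with a thresholded summit in the window are close by definition. Among families with none in the window, the single genes of families 44, 23 and 43 lay 2568, 5460 and 6527 bp away, and family 25, which like family 13 resembles CYP3, had a median of 14862 bp. With the window extended to 2000 bp upstream, cyp-33D3, cyp-35A4 and cyp-37A1 gained a thresholded summit.

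**Figure D3:**
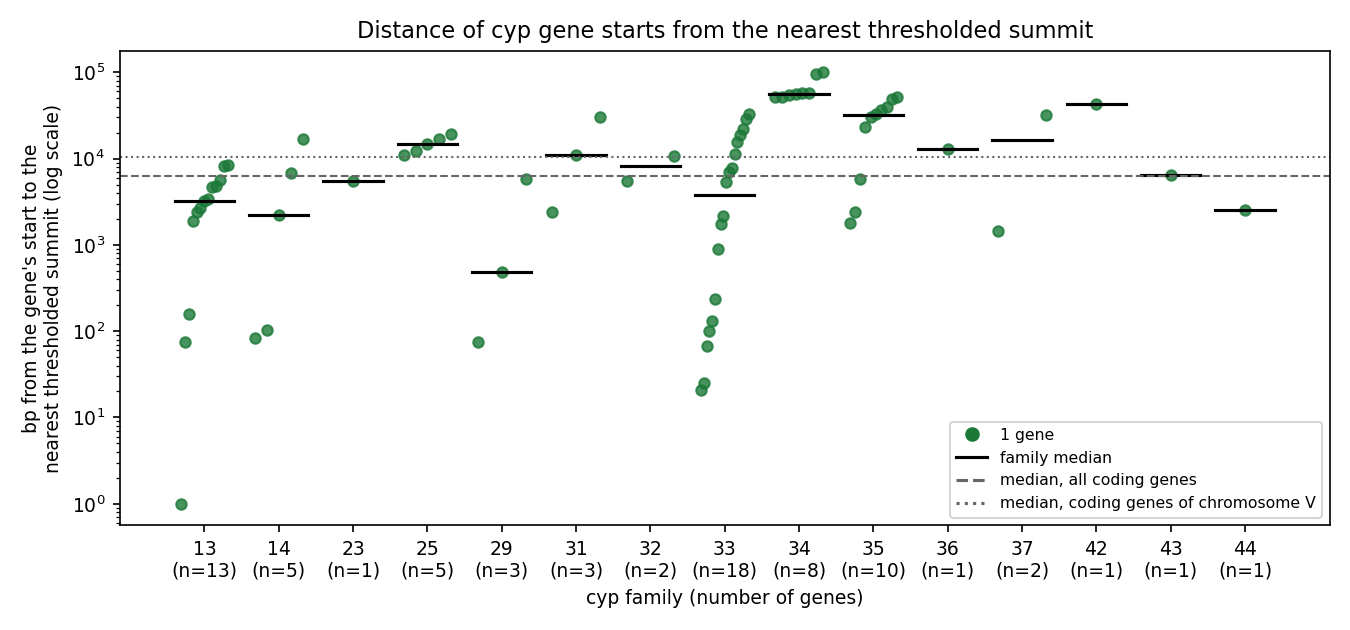
Distance in bp (log scale) from each cyp gene's start to the nearest thresholded summit, in either direction, by family. Green points are genes and black bars family medians. The dashed and dotted lines are the medians over all coding genes (6334) and over coding genes of chromosome V (10451.5). All 8 genes of family 34 lie above 50000 bp, and neighbours among them share a gap.

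Several singleton or small families with known roles had no thresholded summit. cyp-31A2 and cyp-31A3, which are needed for eggshell lipids, had no pooled call in the window. cyp-36A1, which acts downstream of the hypoxia factor HIF-1, had none in the window, and a pooled summit 246 bp from its start. cyp-44A1, of the mitochondrial type, and cyp-23A1 had none, and cyp-42A1 and cyp-43A1 had weak pooled calls of 15.6 and 21.2. cyp-33E2, which like cyp-29A3 is known for making eicosanoids, had no summit in any list.

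By chromosome, cyp genes with a thresholded summit were 3 of 12 on II, where 16.4% of coding genes had one, 10 of 41 on V, where 12.9% had one, and 1 of 7 on X, where 19.6% had one. None of the 6 on III, 7 on IV and 1 on I had one. On chromosome V the members divide by family. Family 33 supplied 7 of the 10, of its 15 genes there, and the other 26 cyp genes supplied 3, where 12.8% of the coding genes of V outside family 33 had a thresholded summit.

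Many cyp genes lie in tandem runs, grouped here where neighbouring members are at most 50 kb apart, a distance chosen after the data were seen. The run cyp-13A1 to cyp-13A8 on II held 8 cyp genes in 30.4 kb, counting 1000 bp on either side, and 4 thresholded summits, or 1.32 per 10 kb against 0.629 per 10 kb over chromosome II. The 4 were the promoter summits of cyp-13A2, cyp-13A5 and cyp-13A8 and the intronic one of cyp-13A3. The run held only 1 other coding gene to which a summit could belong. Within the run cyp-13A1 and cyp-13A4 had no summit of any list in their windows, and cyp-13A6 and cyp-13A7 shared a weak pooled call of 20.7 that lay in an exon of cyp-13A6, 41 bp downstream of its start.

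The run cyp-33C1 to cyp-33C7 on V held 9 cyp genes in 75.1 kb with 5 thresholded summits, or 0.666 per 10 kb against 0.499 per 10 kb over chromosome V. Of the 9, 4 had a thresholded summit, and of the 16 other coding genes in the run 2 had one, the nuclear receptor genes nhr-56 with a signal of 154 and nhr-133 with 68.6. The cyp summits were at the right-hand end, at cyp-33C4, cyp-33C5 and the cyp-33C6 and cyp-33C7 pair. cyp-33C1 at the other end had no call in its window.

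The run cyp-35A5 to cyp-35A4, also on V, held 12 cyp genes of families 34 and 35 in 99.1 kb. It had 2 thresholded summits, or 0.202 per 10 kb, neither in a cyp window, and 1 lay at the start of K09D9.1 with a signal of 284. A pooled call lay in the window of 1 of the 12 cyp genes. In the remaining runs, cyp-14A1 was the 1 gene with a thresholded summit of 4 on X, and the runs of 25A, 33E, 35A1 to 35A2, 34A1 to 34A2 and 13A11 to 13A12 had none in a cyp window.

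**Figure D4:**
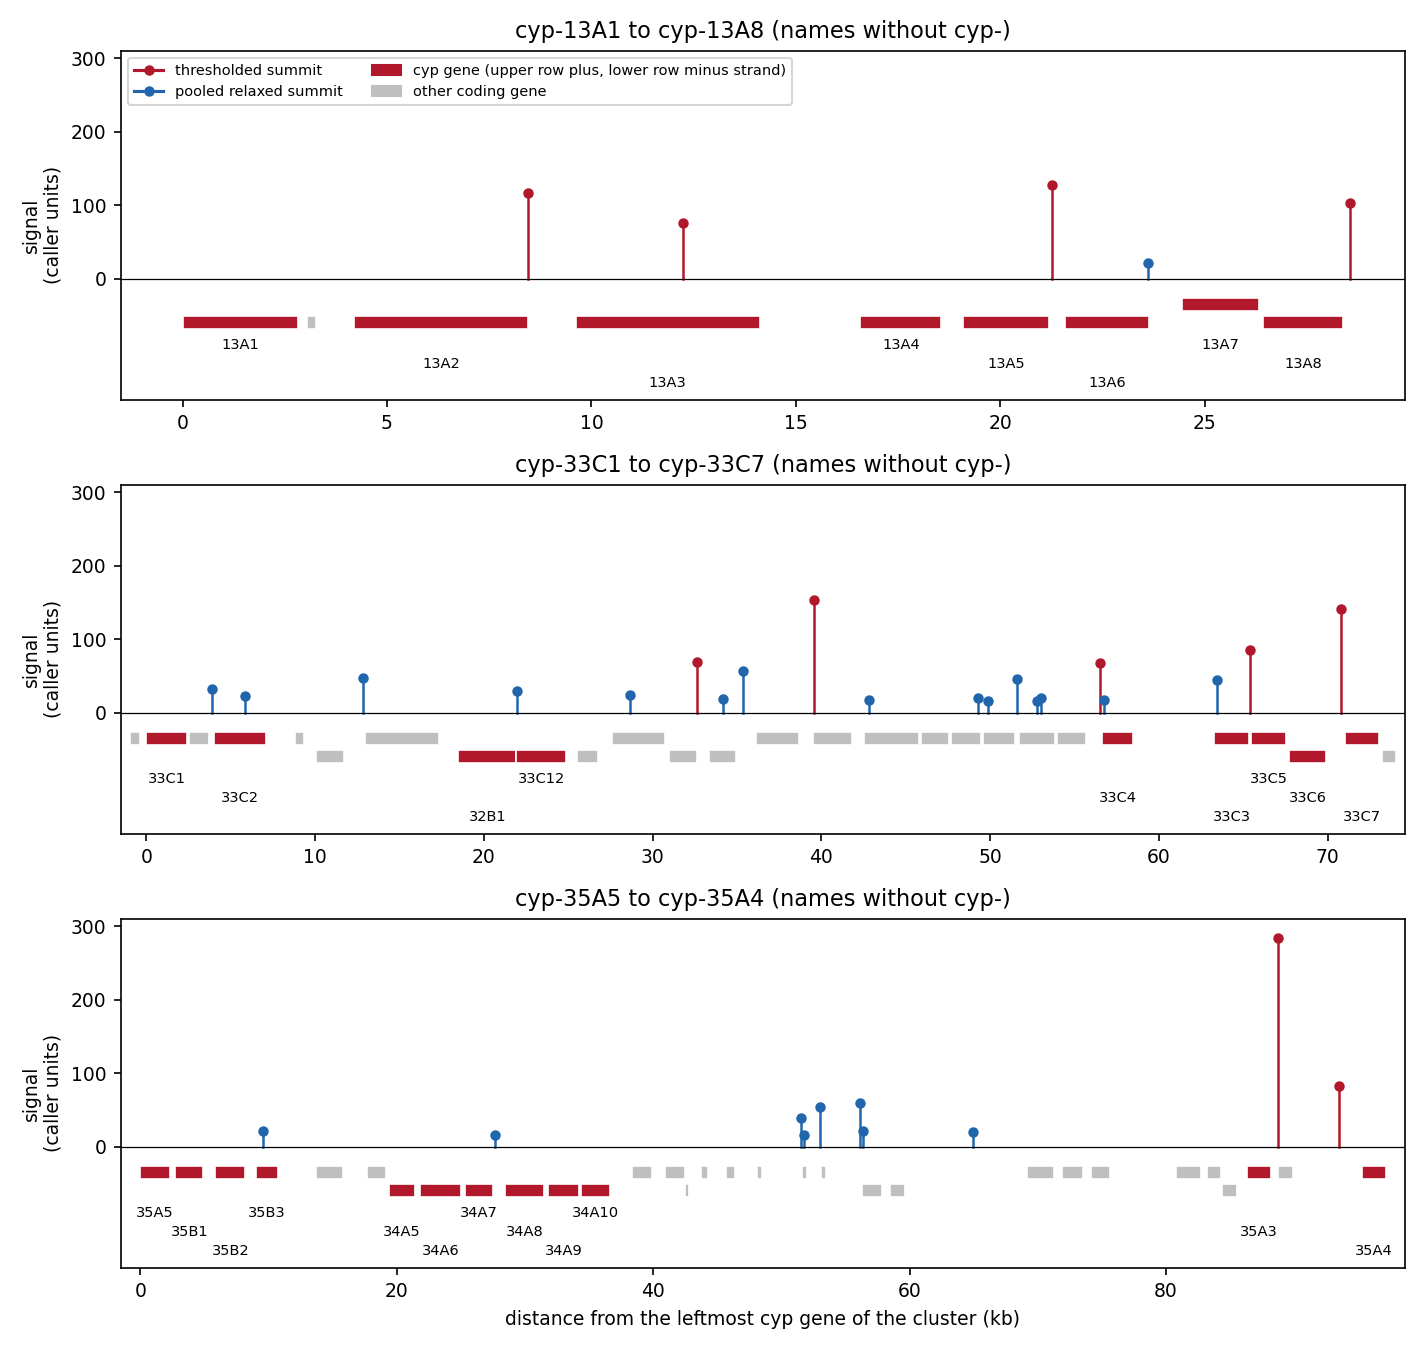
Pooled summits by distance in kb from the leftmost cyp gene in the 3 runs of at least 8 cyp genes, with signal in authors' caller units as height; red stems are thresholded and blue stems relaxed calls. Red boxes are cyp genes and grey boxes other coding genes (upper row plus strand, lower row minus strand). In the top run, with 1 other coding gene, the red stems sit at cyp genes. In the bottom run of families 34 and 35, with 19 others, the 2 red stems lie outside the cyp promoter windows.

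Most cyp genes had no thresholded summit, with 14 of 74 or 18.9% having one, so most pairs of close relatives lacked it too. Whether relatives depart from that share was not tested. Each gene was paired with its closest relative in the family, and 10 such pairs had at least 80% identity of coding sequence. Of these, 1 pair had a thresholded summit at both genes, 2 at one gene and 7 at neither. cyp-13A5 had 127 and cyp-13A4 had none, with 90.3% identity. cyp-33C4 had 68.1 and cyp-33C3 had none, with 85.8% identity, and a pooled summit lay 171 bp from the cyp-33C3 start, outside its window. cyp-33C5 had 85.1 and cyp-33C6 had 141, with 85.7% identity, though the cyp-33C6 value comes from the summit it shares with cyp-33C7. cyp-31A2 and cyp-31A3, the closest pair at 92.9%, had no pooled call.

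Repeated sequence bears on such pairs, since reads that match more than 1 place may be dropped or divided, and how the authors treated them is not given in the sources used here. By 36-base words, 44 of 74 promoter windows were unique in the genome throughout and 12 were unique at under 90% of positions, with the lowest value, 34.4%, at cyp-25A6. The window of cyp-13A8 was unique at 47.1% of positions, but the 100 bp on either side of its summit were unique throughout. That held for 12 of the 13 summits. The exception was cyp-33C4 at 75.9%, where the 69 bases shared with cyp-33C3 are the capitals in the sequence above, and the part of this overlap in its signal was not tested.

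The motifs were searched on both strands within 100 bp of each summit and from 250 bp upstream to 50 bp downstream of each start. They were the nuclear receptor core AGGTCA, the GATA factor motif TGATAA, the aryl hydrocarbon receptor core GCGTG, the E-box CACGTG and the repeat GAGAGA, and none is contained in another. AGGTCA was near 1 of 13 cyp summits, that of cyp-29A4, against 7.29% of all 6626 thresholded summits, and in 8 of 74 cyp promoters, against 8.29% of all 19973. It was in 0 of the 14 cyp promoters with a thresholded summit and in 8 of the 60 others, against 6.76% of all 3640 promoters with a thresholded summit. GAGAGA was near 5 of 13 cyp summits, those of cyp-13A8, cyp-29A2, cyp-33C5, cyp-33A1 and cyp-33C4, against 44.0% of all summits. It was in 11 of 74 cyp promoters, against 21.8% of all. It was in 6 of the 14 cyp promoters with a thresholded summit and in 5 of the 60 others, against 30.7% of all 3640 promoters with a thresholded summit. These matches are descriptions of the letters and not of bound sites.

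TGATAA was near 2 of 13 cyp summits, those of cyp-14A1 and cyp-29A4, against 15.2% of all summits. In promoters the motif was found in 32 of 74 cyp genes, against 30.3% of all coding genes. It was in 1 of the 14 cyp promoters with a thresholded summit and in 31 of the 60 others, against 25.0% of all 3640 promoters with a thresholded summit. GCGTG was near 1 summit, that of cyp-13A8, against 26.3%, and in 11 of 74 cyp promoters, against 19.1%. CACGTG was near none, against 8.92%, and in 3 of 74 cyp promoters, against 5.84%.

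Genes that work with the P450 enzymes were read as a list of 24, chosen with earlier results of these data known. Of these, 12 had a thresholded promoter summit and 13 a pooled one. The shares over all coding genes were 18.2% and 38.6%, but a list chosen in this way cannot be compared with them as a neutral set. Of the electron donors, emb-8, the P450 reductase, had a signal of 336 at rank 622 with its summit at position -938 from its start, 194 in replicate 1 and 135 in replicate 2. cytb-5.1, a cytochrome b5, had 184, with 105 in replicate 1 and 76.6 in replicate 2, and cytb-5.2 had no call. The reductase signal was higher than that of every cyp gene except cyp-33C8.

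The worm cannot make haem and imports the cofactor, and all 4 haem genes of the list, chosen in the same way, had a thresholded summit. hrg-2, a haem-binding protein of the hypodermis, had a signal of 536, with 313 in replicate 1 and 220 in replicate 2. The transporter gene hrg-1 had 167, with 93.2 in replicate 1 and 72.1 in replicate 2. Its replicate 2 summit lay 236 bp from the pooled one, and its replicate 1 summit 36 bp. hrg-4, an importer of the intestine, had 137 at a summit shared with hrg-6, and hrg-3, an exported haem carrier, had 95.1 at one shared with F58E6.8. None of the 3 genes listed for steroid hormone synthesis, among them the P450 gene daf-9, had a thresholded summit.

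Of 14 regulators, 6 had a thresholded summit. The fat and starvation receptor gene nhr-49 had a signal of 508, with 321 in replicate 1 and 189 in replicate 2. egl-9, the prolyl hydroxylase that acts on HIF-1, had 186, with 103 in replicate 1 and 85.9 in replicate 2, and hif-1 itself had 85.4, with 49.1 and 36.6. aha-1, the partner of HIF-1 and of the aryl hydrocarbon receptor, had 186 at a summit shared with C25A1.15. The receptor gene nhr-86 had 87.2, with 43.4 in replicate 1 and 50.9 in replicate 2. The receptor gene nhr-8, which acts in the response to xenobiotics, had 72.1 from a summit 98 bp downstream of its start, near the edge of the window, with overlapping calls of 43.5 in replicate 1 and 27.0 in replicate 2. ahr-1, skn-1, elt-2, elt-7, mdt-15, daf-12, nhr-46 and nhr-176 had no thresholded summit in the window, though nhr-46, skn-1 and daf-12 had one or more inside the gene.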

How the data were processed

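Chromatin immunoprecipitation and sequencing of eGFP-NHR-129 was done on 2 biological replicates of L2 larvae. Per the labels, the authors called peaks leniently in each replicate and in the pooled alignments, each time with a control, and kept as thresholded the pooled peaks that passed an irreproducible discovery rate. The deposited columns used were the signal, the summit offset and the −log10 q-value of each peak in ce11. The sources used here give no aligner, caller, version or read depth, and the ce10 lists were not used.

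The Ensembl release 115 annotation of WBcel235 gave gene starts, and the 12 mitochondrial coding genes were left out. Each gene took its strongest summit in the window. Replicate signals at a thresholded summit came from the strongest overlapping call. Lists had no filter on signal, and no test was run over genes. With a single group there is no comparison of conditions, and members are not replicates. Identity of coding sequences came from global alignment with Biopython 1.88, with tables in pandas 2.3.3 under Python 3.11.15. Placement was checked on 2000 simulated summits, drawn inside and outside the windows, of which 2000 were rightly assigned or rightly left out. Genes named are all cyp genes with a thresholded summit, the 8 strongest without one, those with a summit in the gene body, genes sharing a summit, and their relatives with no call. Names outside this rule, such as those with calls in replicates alone, nhr-56, nhr-133 and K09D9.1, were added after their values were seen. The members, the lists of motifs and of partner genes, and the rules were chosen with earlier results of these data known.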

Additional observations from a re-analysis of the deposited data

How the results depend on the processing

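The count of 14 cyp genes with a thresholded promoter summit ran from 12 to 17 under single alternatives. These were other windows, transcript starts, any overlap of the peak, peaks overlapped by both replicates, and either replicate alone (12 to 15). Leaving out summits in the window of a coding gene that is not a cyp gene kept all 14, the cyp-33C6 and cyp-33C7 pair included. Families numbered 4 in the main result, 6 with 2000 bp upstream and 5 without replicate 1. The count of genes fell to 5 with the stronger part of the thresholded list, above its median. With the 1000 strongest peaks it fell to 1, which leaves 1 family in place of 4. The count of 30 with a pooled call was 14 at the highest deposited −log10 q-value, which marks the most significant calls. These were the same 14 genes that had a thresholded summit, so this setting repeats that result. They came from 4 families in place of 12. Where each replicate had to overlap the call, the pooled count fell to 20 genes in 7 families. Other windows, transcript starts, any overlap, summits in no window outside the cyp genes, and either replicate alone gave 25 to 36 genes. The median pooled signal of 53.2 was 68.1 with 500 bp upstream and 48.1 with any overlap. It was 68.1 without summits in the window of a coding gene that is not a cyp gene. With overlap by both replicates it was 83.8, and at the highest −log10 q-value 98.5. Either replicate alone gave 30.6 to 31.3 on its own scale. These stricter lists hold fewer calls by construction. Among families with at least 1 gene counted, 8 of 40 family counts in the thresholded list and 30 of 108 in the pooled list moved by over 1.5 times under single alternatives. No paired analysis was possible because there is only 1 group. Unknown depth, a caller scale with no stated unit, a tagged transgene and mixed tissues limit every value, and the control library was not analysed here.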
